A study of Drosophila melanogaster with 12 samples.

Results

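Alkaline phosphatases are zinc enzymes that remove phosphate groups from many small molecules and proteins at alkaline pH, mostly on the outer surface of cells. In insects they are best known from transporting epithelia such as the gut and the Malpighian tubules, the excretory organs that take the place of kidneys. The RefSeq annotation of Drosophila melanogaster (Release 6 plus ISO1 MT) names 12 such genes with the symbol Alp and a number, and each of the 12 had 1 probe set on the array. The genes described here are Alp2 (CG3290), Alp4 (CG1462), Alp9 (CG5150), Alp10 (CG10592) and Alp12 (CG16771), which are 5 of the 11982 genes that the probe sets could name. They were chosen from the family with earlier results of these same arrays in view. Which comparison picked them is not recorded, so all their levels are given as a description and no p-value is attached to them. The other 7 genes of the family are what that choice left over, so it bears on them too. The linear model's adjusted p-values are printed for those bright enough to test, as a description that is not free of the choice.

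Male Canton-S larvae, a wild-type strain, were measured whole on 12 Affymetrix arrays, 3 biological replicates in each of 4 groups. Wandering larvae, which had left the food late in the last instar, had eaten high sugar food (1 M sucrose) or control food (0.15 M sucrose) since they hatched. Mid-L3 larvae, still feeding earlier in the last instar, had all been raised on control food and spent the final 12 h on high sugar or on fresh control food. Stage and length of the diet therefore cannot be told apart when the diet changes of wandering and mid-L3 larvae are set side by side.

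The values are linear intensities as deposited, 1 per probe set and array, with array medians of 62.2 to 82.4. Log2 changes come from a fit to 8387 genes after an added constant of 12.7 and quantile normalization, so they understate the change of dim genes. An intensity depends on the probes as well as on the transcript, and levels are therefore compared between groups of one gene and never between genes. Of 12 marker lists and related gene lists, the 3 yolk protein genes summed to 23.9 to 60.7 over the 12 arrays. The 8 testis genes summed to 1058 to 1559 in mid-L3 and 6137 to 8047 in wandering larvae. All larvae were labelled male, so no female array was there for comparison and these sums do not test the sex. Leaving out replicate 2 of the wandering larvae on high sugar food raised the number of genes called in the wandering diet comparison to 1418, against 535 with all arrays. It was 320, 302 and 280 without wandering high sugar replicate 1, high sugar replicate 3 or wandering control replicate 3, and 328 without both control arrays numbered 1.

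Alp4 was higher on high sugar food at both stages. Alp12 was higher on high sugar food in mid-L3 larvae, and Alp9 and Alp10 were lower there. Alp2 overlapped between the foods in mid-L3 larvae and had a higher level on high sugar food when wandering. All 5 genes were lower in wandering than in mid-L3 larvae given control food. The plot of intensities by array shows these levels.

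**Figure D1:**
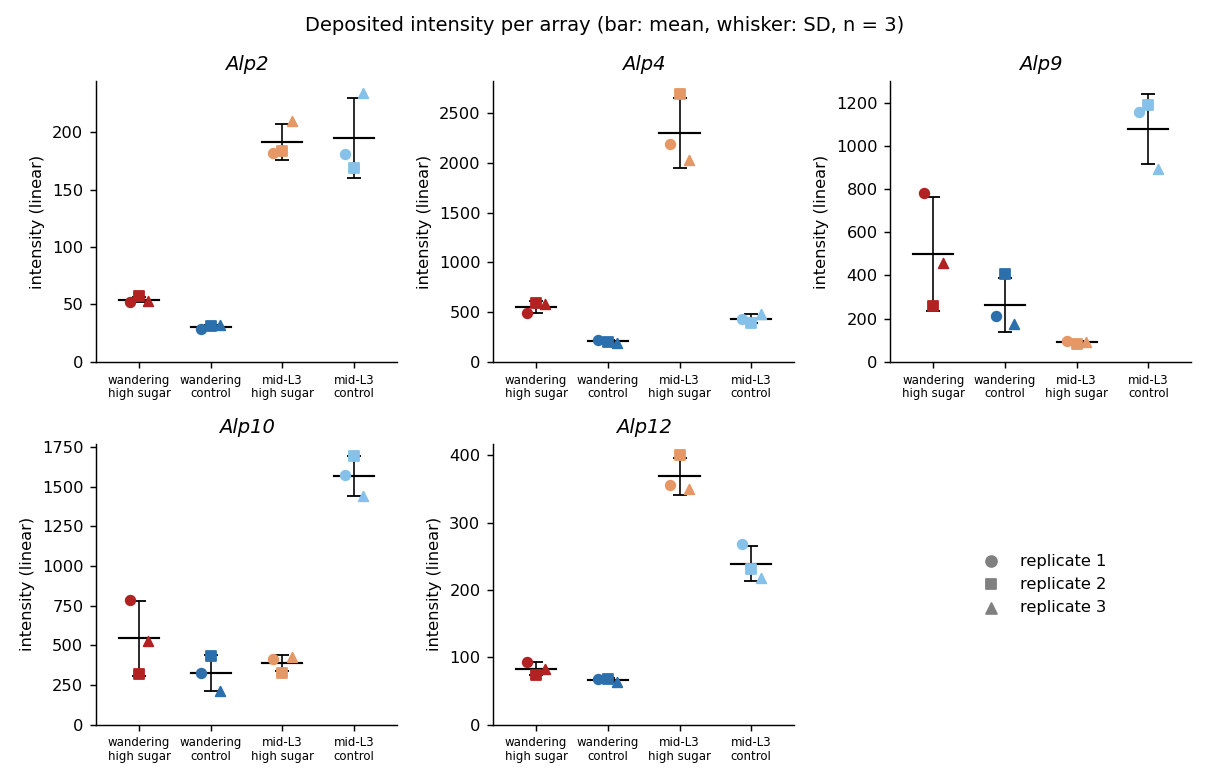
Deposited intensity (linear, from 0) of Alp2, Alp4, Alp9, Alp10 and Alp12 in wandering and mid-L3 larvae given high sugar or control food; each symbol is 1 array, the bar is the mean and the whisker the SD (n = 3). The Alp4 arrays of mid-L3 larvae given high sugar food sit between 2027 and 2700, above every other array, whereas the Alp9 arrays of that group sit between 82.6 and 96.3, below every other array.

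Alp4, formerly Aph-4, is the family member whose expression in Malpighian tubules and in the ellipsoid body of the brain is on record. In mid-L3 larvae its intensities were 2190, 2700 and 2027 on high sugar food, against 433, 392 and 485 on control food. In wandering larvae they were 488, 592 and 578 on high sugar food, against 223, 204 and 189.8 on control food. The foods did not overlap at either stage, and the smallest gap lay between wandering larvae on high sugar food and mid-L3 larvae given control food (488 against 485).

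The mean of Alp4 was 5.28 times as high on high sugar as on control food in mid-L3 larvae (2306 ± 351 against 436 ± 46.5, SD, n = 3 each). In wandering larvae it was 2.69 times as high (552 ± 56.7 against 206 ± 16.4, SD, n = 3 each). The log2 changes were 2.21 (SE 0.13) in mid-L3 and 1.38 (SE 0.13) in wandering larvae. Among the 8387 genes these ranked 17 and 53 from the highest. Their difference, wandering minus mid-L3, was -0.84 (SE 0.18). Between the stages, Alp4 was lower in wandering larvae by a log2 change of -2.11 (SE 0.13) on high sugar food and -1.27 (SE 0.13) on control food.

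Alp12 is a predicted alkaline phosphatase. On the current annotation its gene overlaps Pax and CG13085, and probe sequences were not analysed here. Its intensities in mid-L3 larvae were 357, 400.3 and 349.6 on high sugar food, against 268, 231 and 218 on control food. In wandering larvae they were 92.8, 74.2 and 82.0 on high sugar food, against 67.8, 68.2 and 62.6 on control food. The 4 groups formed separate steps, with no array of one group inside the range of another.

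The means of Alp12 were 369 ± 27.5 on high sugar and 239 ± 25.7 on control food in mid-L3 larvae (SD, n = 3 each), a log2 change of 0.61 (SE 0.10). In wandering larvae they were 83.0 ± 9.34 and 66.2 ± 3.07 (SD, n = 3 each), a log2 change of 0.23 (SE 0.10). The stage set the larger distance. Wandering larvae had lower levels than mid-L3 larvae by a log2 change of -2.29 (SE 0.10) on high sugar food and -1.91 (SE 0.10) on control food.

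Alp9 and Alp10 are predicted alkaline phosphatases whose genes are next to each other on chromosome arm 3L. In mid-L3 larvae the intensities of Alp9 were 96.3, 82.6 and 90.7 on high sugar food, against 1159, 1187 and 892 on control food. Those of Alp10 were 412, 327 and 424 on high sugar food, against 1571, 1695 and 1441 on control food. For both genes the arrays of mid-L3 larvae given high sugar food lay far below those on control food, with no overlap. By normalized values, 1504 of the 8387 genes tested lay wholly lower on high sugar food in mid-L3 larvae.

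In wandering larvae Alp9 had 783, 260.5 and 457 on high sugar food, against 211, 408 and 174.5 on control food. Alp10 had 788, 317 and 529.5 on high sugar food, against 327, 435 and 211 on control food. The foods overlapped for both genes, because high sugar replicate 2 lay below control replicate 2.

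The mean of Alp9 in mid-L3 larvae was 89.9 ± 6.86 on high sugar food and 1079.6 ± 163 on control food (SD, n = 3 each), 12.0 times as high on control food. That of Alp10 was 388 ± 52.8 on high sugar food and 1569 ± 127 on control food (SD, n = 3 each), 4.05 times as high on control food. The log2 changes were -3.23 (SE 0.35) for Alp9 and -1.80 (SE 0.30) for Alp10, which ranked 11 and 40 from the lowest of 8387 genes. In wandering larvae the changes had the other sign, 0.86 (SE 0.35) for Alp9 and 0.70 (SE 0.30) for Alp10. They rested on single arrays. Without high sugar replicate 1 they were 0.43 and 0.34, without high sugar replicate 2 they were 1.26 and 1.04, and without control replicate 3 Alp10 gave 0.44.

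The difference of the diet changes, wandering minus mid-L3, was 4.09 (SE 0.49) for Alp9 and 2.50 (SE 0.42) for Alp10, ranking 3 and 16 from the highest. On high sugar food Alp9 was higher in wandering than in mid-L3 larvae (log2 change 1.91, SE 0.35), while on control food it was lower (-2.19, SE 0.35). Alp10 gave 0.14 (SE 0.30) between the stages on high sugar food, where its arrays overlapped, and -2.37 (SE 0.30) on control food. The sign of that 0.14 turned to -0.22 without high sugar replicate 1 of the wandering larvae. Ordered by mean, Alp9 ran from mid-L3 control through wandering high sugar and wandering control to mid-L3 high sugar, and the wandering groups overlapped. Alp10 ran from mid-L3 control through wandering high sugar and mid-L3 high sugar to wandering control, and its lower 3 groups overlapped one another.

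The replicates of Alp9 and Alp10 also moved together. Among wandering larvae on high sugar food, replicate 1 was the highest and replicate 2 the lowest array for both genes. Among wandering larvae on control food, replicate 2 was the highest and replicate 3 the lowest for both, and the same held among mid-L3 larvae given control food. Only among mid-L3 larvae given high sugar food did the highest array differ (replicate 1 for Alp9, replicate 3 for Alp10). Such an order was not particular to the pair. In wandering larvae on high sugar food, Alp5, Alp6 and Alp12 had the same highest and lowest array as Alp9 and Alp10. Alp12 shared it on control food too. Of the other tested Alp genes, Alp1, Alp2, Alp4 and Alp8 had another order in wandering larvae on high sugar food. Whether a probe set of one gene also bound transcripts of the other was not tested.

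**Figure D2:**
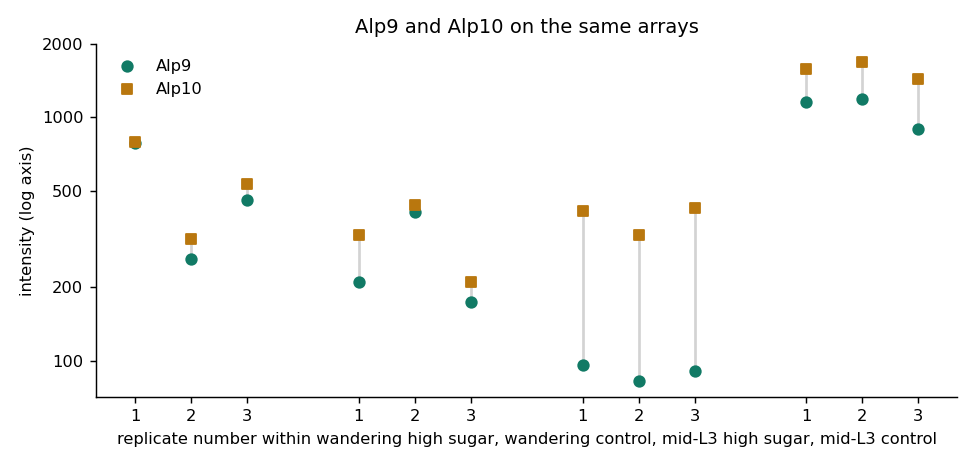
Intensity (log axis) of Alp9 (circles) and Alp10 (squares) on each of the 12 arrays, with a grey line joining the values of 1 array. In mid-L3 larvae given high sugar food Alp9 lay at 82.6 to 96.3 and Alp10 at 327 to 424, against 892 to 1187 and 1441 to 1695 on control food, while the wandering arrays of both genes spread widely within each food.

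Alp2 is a predicted alkaline phosphatase that lies between Alp7 and Alp8 on arm 2R, where the 3 genes follow each other. In wandering larvae its intensities were 52.4, 56.9 and 53.2 on high sugar food, against 28.5, 31.1 and 32.2 on control food. In mid-L3 larvae they were 181.5, 184 and 209.6 on high sugar food, against 181.3, 169 and 234 on control food. The foods lay apart in wandering larvae and overlapped in mid-L3 larvae. The log2 change with the diet was 0.52 (SE 0.12) in wandering and 0.01 (SE 0.12) in mid-L3 larvae. Between the stages Alp2 was lower in wandering larvae, by -1.85 (SE 0.12) on high sugar and -2.37 (SE 0.12) on control food. Its change in wandering larvae depended on the added constant: 0.67 with a constant of 1 and 0.27 with one 5 times larger.

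By the model's threshold (Benjamini-Hochberg adjusted p under 0.05 in limma), 2 of the 5 members, Alp2 and Alp4, were higher on high sugar food in wandering larvae, where 3.58% of all genes tested were called higher. By the normalized values of the arrays alone, 3 of the 5 (Alp2, Alp4 and Alp12) had high sugar values wholly above control values, as had 11.8% of all genes. In mid-L3 larvae 2 of the 5 were called higher (Alp4 and Alp12; 7.52% of all genes) and 2 lower (Alp9 and Alp10; 6.52% of all genes). By normalized values there, 2 of the 5 lay wholly above and 2 wholly below control values. So did 1804 and 1504 of the 8387 genes. For the difference of the diet changes, 2 were called positive (Alp9 and Alp10; 3.79% of all genes) and 1 negative (Alp4; 3.97% of all genes). These counts describe the members and support nothing, since the members were picked with the values known. All 5 passed the filter on dim genes, and Alp2 had the mean nearest to it.

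The count of 2 in wandering larvae was 1, with Alp4 alone, when either high sugar replicate 1 or 3 or control replicate 1 or 3 was left out. Without high sugar replicate 2 it was 4, with Alp9 and Alp10 added. In mid-L3 larvae the count of 4 was the same without any one array.

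The stage comparisons covered most genes of the family. On control food all 5 members were called lower in wandering than in mid-L3 larvae, where 39.8% of all genes were called lower and 39.4% higher. On high sugar food 3 of the 5 were called lower (Alp2, Alp4 and Alp12; 40.9% of all genes) and 1 higher (Alp9; 38.3% of all genes). The stage comparisons share arrays with the diet comparisons, and each change is given on its own. In whole larvae, fewer cells of a type and less transcript per cell cannot be told apart.

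**Figure D3:**
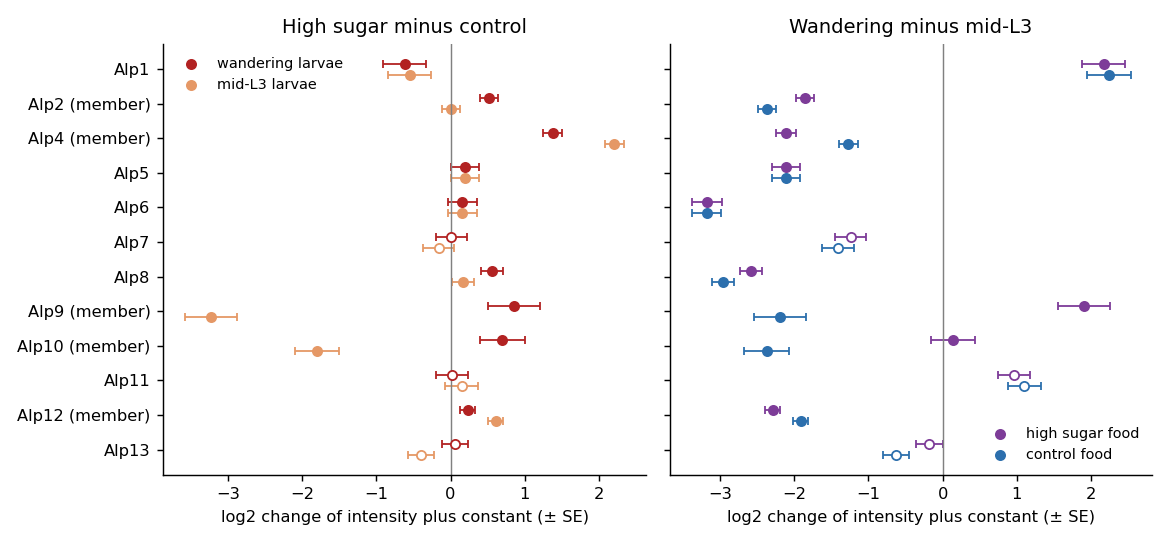
Log2 change of intensity plus constant (± SE) of the 12 Alp genes, high sugar minus control on the left and wandering minus mid-L3 on the right; open circles are genes too dim to be tested. With the diet, Alp9 and Alp10 lie at -3.23 and -1.80 in mid-L3 larvae and at 0.86 and 0.70 in wandering larvae. With the stage, Alp1 and the untested Alp11 lie above 0 on both foods.

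Of the other 7 genes of the family, Alp1, Alp5, Alp6 and Alp8 passed the filter and Alp7, Alp11 and Alp13 did not. None of the 4 was called by limma in either diet comparison or for the difference of the diet changes, a count that the choice of the members may itself have set and from which nothing is read. With array weights Alp5 and Alp6 were called higher in wandering larvae (log2 changes 0.66 and 0.60, adjusted p = 0.0113 and 0.0227) and Alp1 lower in mid-L3 larvae (-0.88, adjusted p = 0.0158). The weights, whose estimation stopped before it converged, called many more of the 8387 genes. They called 2366 in wandering and 2517 in mid-L3 larvae, against 535 and 1178 without them. At an unadjusted p under 0.05 there was 1, Alp8, in wandering larvae, and none in mid-L3 larvae. Of all 8387 genes tested, 1898 in wandering and 2308 in mid-L3 larvae had such a p in limma. Alp8 had 221, 247 and 260.2 on high sugar food, against 173, 144 and 160.4 on control food. The arrays did not overlap, and the log2 change of 0.56 (SE 0.15) just missed the threshold (adjusted p = 0.0502, range 0.0346 to 0.153 over the alternatives). In mid-L3 larvae Alp8 gave 0.17 (SE 0.15, adjusted p = 0.512).

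With the stage, 3 of the 4 tested genes fell and 1 rose in wandering larvae on control food. Alp6 averaged 165.7 ± 52.4 in wandering and 1439.7 ± 93.2 in mid-L3 larvae given control food (SD, n = 3 each), and fell by 3.18 on the log2 scale (SE 0.20, adjusted p = 1.02e-08). Alp8 fell by 2.96 (SE 0.15, adjusted p = 1.91e-09) and Alp5 by 2.11 (SE 0.19, adjusted p = 3.1e-07). Alp1, another predicted alkaline phosphatase, rose. It had 2711, 1880 and 2066 in wandering larvae on control food, against 616, 277 and 519 in mid-L3 larvae given control food, a log2 change of 2.24 (SE 0.29, adjusted p = 1.19e-05). On high sugar food the changes were -3.17 for Alp6, -2.58 for Alp8, -2.11 for Alp5 and 2.17 for Alp1, all with adjusted p under the threshold. Alp1 was thus the 1 tested gene of the family called higher in wandering larvae on both foods. With the diet, Alp1 had 1693, 1344 and 1332 in wandering larvae given high sugar food, all below the control arrays, with a log2 change of -0.62 (SE 0.29) that did not pass (adjusted p = 0.235).

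The 3 dim genes are given by value. Alp7 averaged 24.8 and 22.6 in wandering larvae on high sugar and control food, and 66.4 and 74.1 in mid-L3 larvae given high sugar and control food. Alp13 averaged 56.6, 53.5, 56.0 and 74.4 in the same order. Alp11 was the dimmest relative to the filter, with 23.0 to 45.6 in wandering and 4.5 to 14.5 in mid-L3 larvae.

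**Figure D4:**
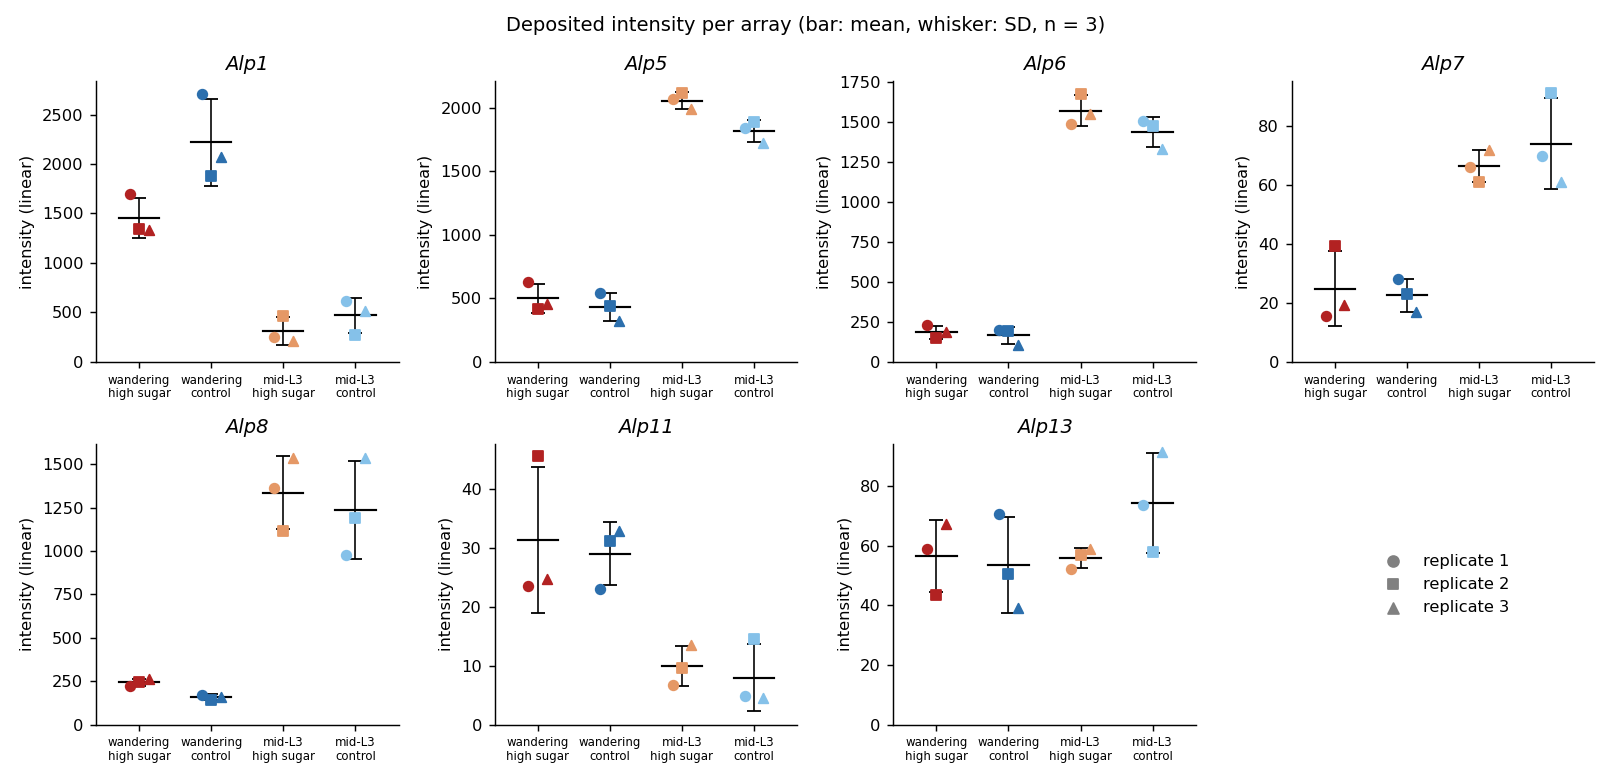
Deposited intensity (linear, from 0) of Alp1, Alp5, Alp6, Alp7, Alp8, Alp11 and Alp13 in the same 4 groups; each symbol is 1 array, the bar is the mean and the whisker the SD (n = 3). Alp1 lay at 1332 to 2711 in wandering and 207 to 616 in mid-L3 larvae, while Alp5, Alp6 and Alp8 lay lower in wandering than in mid-L3 larvae given either food.

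The genes whose log2 values followed each member most closely were ranked by Pearson correlation over the 12 arrays. These coefficients describe the same 12 arrays, whose stages stand far apart, so a shared stage difference alone gives a large coefficient. Alp4 was most like the maltase gene Mal-A7 (r = 0.972), the sugar-induced transcription factor gene sugarbabe (sug, 0.966) and CG32751 (0.959). Mal-A7 averaged 126 on high sugar and 37.7 on control food in wandering larvae, and 724 and 90.2 in mid-L3 larvae. sug averaged 369.6 and 61.3 in wandering larvae and 2226 and 376 in mid-L3 larvae. Like Alp4, both had their highest level in mid-L3 larvae given high sugar food and their lowest in wandering larvae on control food.

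Alp12 was most like CG10877, the transaldolase gene Taldo of the pentose phosphate pathway and the glycogen branching enzyme gene AGBE (r = 0.995 for each). Taldo averaged 1686 on high sugar and 1568 on control food in wandering larvae, and 9211 and 6331 in mid-L3 larvae. Alp2 was most like Alp8, its neighbour on the chromosome, and like wal, which encodes a subunit of the electron transfer flavoprotein, and COX4, a subunit of cytochrome c oxidase (r = 0.994 for each). Alp10 was most like the glutathione transferase gene GstD10 (r = 0.943), CG6766 (0.941) and EndoU (0.940). GstD10 had 812, 308 and 384 in wandering larvae on high sugar food, in the order in which Alp10 itself had its highest, lowest and middle array. The order also matched in mid-L3 larvae given high sugar food, but not on control food at either stage. GstD10 had 483, 454 and 364 in wandering control larvae, against 327, 435 and 211 for Alp10. In mid-L3 control larvae it had 2042, 1767 and 1963, against 1571, 1695 and 1441 for Alp10. Alp9 was most like CG5321 (r = 0.933), Spase25, a subunit of the signal peptidase (0.930), and CG1092 (0.924). Alp9 and Alp10 correlated at 0.824, which placed Alp10 at rank 32 among the genes most like Alp9. Among the genes most like Alp10, Alp9 was at rank 100.

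**Figure D5:**
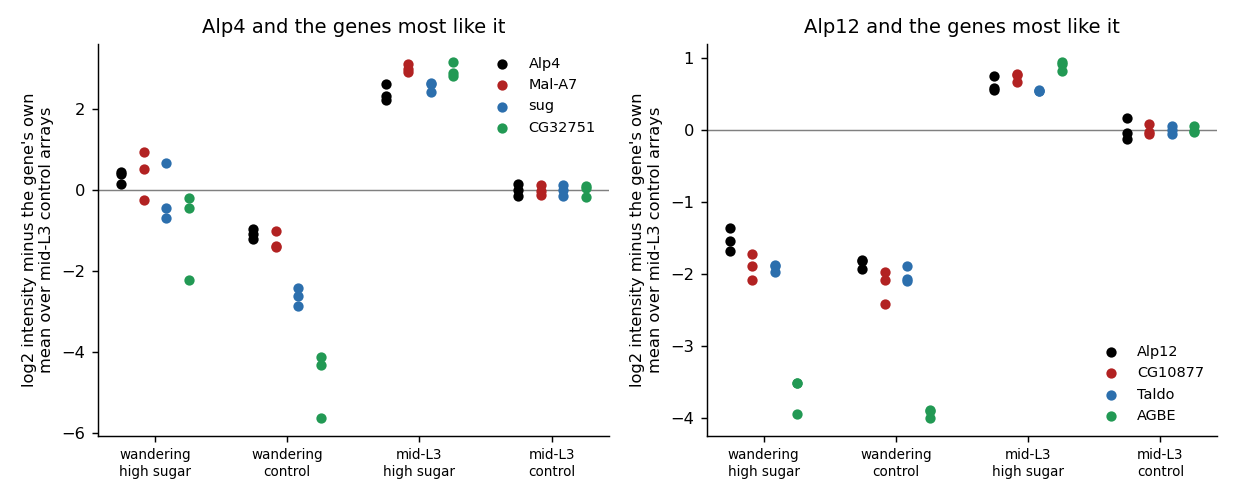
Log2 intensity minus the gene's own mean over the mid-L3 control arrays, for Alp4 with Mal-A7, sug and CG32751 and for Alp12 with CG10877, Taldo and AGBE; each point is 1 array. Alp4 and the 3 genes like it share the highest group, mid-L3 high sugar, and the lowest, wandering control, while the order of the middle groups differs for sug and CG32751, and Alp12 shares with its 3 genes the step between the stages, which is larger for AGBE.

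Of 8 tested genes for acid phosphatases and other phosphohydrolases, none was called by limma in wandering larvae (4 at an unadjusted p under 0.05) and 1 rose in mid-L3 larvae, the predicted acid phosphatase gene CG6656 (log2 change 0.45, SE 0.09, adjusted p = 0.0055). Their median log2 changes were -0.08 and -0.14, beside -0.02 and 0.01 over all genes. Of all genes, 3.58% were called higher in wandering and 7.52% in mid-L3 larvae. In mid-L3 larvae too, 4 of the 8 had an unadjusted p under 0.05 in limma. Of all 8387 genes, 1898 had such a p in wandering and 2308 in mid-L3 larvae. Of 5 phosphate transport genes, none was called by limma in wandering larvae (1 at an unadjusted p under 0.05) and 2 rose in mid-L3 larvae. These were the phosphate cotransporter gene Picot (0.71, SE 0.14, adjusted p = 0.0048) and the transporter gene MFS10 (0.35, SE 0.10, adjusted p = 0.034). No more than these 2 of the 5 had an unadjusted p under 0.05 in mid-L3 larvae. The median changes of the 5 were 0.15 and 0.14. With the stage on control food, 1 of the 5 was called higher and 3 lower in wandering larvae (median -0.46), and among the phosphohydrolases 5 were called higher and 3 lower (median 0.62). In that comparison 39.4% of all genes were called higher and 39.8% lower.

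Markers of the tissues in which alkaline phosphatases are known were also compared between the stages. On control food, 39.4% of all genes tested were called higher and 39.8% lower in wandering larvae, with a median of -0.01. Of 12 tested Malpighian tubule markers, 2 were called higher and 8 lower in wandering than in mid-L3 larvae given control food, with a median of -1.08. Their summed intensity over 14 genes was 3495 to 3889.6 in wandering and 5571 to 5991 in mid-L3 larvae given control food. On high sugar food it was 3751 to 4511 in wandering and 5036 to 5706 in mid-L3 larvae. Of 14 midgut markers, 3 were called higher and 10 lower in wandering larvae on control food, and their sum was 48054 to 57561 in wandering and 65468 to 70179 in mid-L3 larvae given control food.

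With the diet, 6 of the 14 midgut markers were called higher and none lower in mid-L3 larvae, where 7.52% of all genes were called higher and 6.52% lower. The midgut markers summed to 83061 to 89831 on high sugar and 65468 to 70179 on control food, while the tubule markers summed to 5036 to 5706 on high sugar and 5571 to 5991 on control food. Among the tubule markers 1 fell in mid-L3 larvae, the potassium channel gene Irk2 (-0.49, SE 0.10, adjusted p = 0.0077). Mal-A7, named above for its likeness to Alp4, is among the 6 midgut markers called higher, so the list and that likeness are not independent. In wandering larvae 4 midgut markers were called higher and 4 lower, and 2 tubule markers were called higher, Irk2 (0.47, SE 0.10, adjusted p = 0.019) and the aquaporin gene Drip (0.49, SE 0.11, adjusted p = 0.02). Of the 8387 genes tested, 300 were called higher and 235 lower with the diet in wandering larvae. The part of midgut and tubules in the levels of the Alp genes was not tested. Over the other lists of tissue markers with tested genes, the median change with the stage on control food ran between -3.11 for body wall muscle and 6.51 for salivary gland.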

How the data were processed

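Whole larvae were measured on 12 Affymetrix arrays, from 2 ug of total RNA per sample per the labels. The authors deposited 1 linear intensity per probe set; which program summarized and normalized the probes is not given in the sources used here. Of 18952 probe sets, 183 controls, 402 with several genes and 4720 unlisted in the platform table were not used to name genes, and 13544 of 13647 symbols were updated through RefSeq. The brightest probe set stood for a gene, and a filter at the 30th percentile of mean level kept 8387 genes. After log2 of intensity plus 12.7 (the 20th percentile) and quantile normalization, group means were fitted with limma 3.58.1 (R 4.3.3) with an intensity trend, 8 residual and 4.4 prior degrees of freedom, with Benjamini-Hochberg adjustment per comparison over all genes. The fit was tested on simulated data. Alternatives were other constants, normalizations, filters and probe set rules, array weights, no trend, the compared arrays alone, a replicate block, and single arrays left out. Plots used matplotlib 3.10.9 and Python 3.11.15.

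Members and lists were chosen with earlier results of these data known. Named genes are the Alp genes, list genes with the smallest adjusted p, and the 3 genes most like each member. No sequence is shown, since sequences were not used here. Replicate numbers come from the labels, which name no shared batch. Between wandering and mid-L3 controls, deviations of arrays with the same number had correlations of 0.121 to 0.179 over 3 pairs. These passed the cut-off set here for pairing, while arrays with different numbers gave -0.183 to 0.0724. In the other 5 pairs of groups the lowest same-number correlation was -0.264 to -0.0217, which does not pass. Arrays with different numbers reached 0.389 between the wandering groups. The labels do not say whether arrays with the same number were handled together. The main fit treated all arrays as unpaired, and the replicate block was an alternative.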

Additional observations from a re-analysis of the deposited data

Results flagged for a closer look

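Alp9, Alp10 and Alp4 were marked because their diet changes differed between wandering and mid-L3 larvae by the interaction term of the fit across all genes. The difference, wandering minus mid-L3, was 4.09 on the log2 scale for Alp9, 2.50 for Alp10 and -0.84 for Alp4. The members were picked with these values known, so these differences are a description. For Alp9 and Alp10 every mid-L3 array on high sugar food lay below every control array, while in wandering larvae 2 of 3 high sugar arrays of Alp9 lay above all control arrays. For Alp4 the sign was the same at both stages and the sizes differed. Groups of 3 arrays were not searched for outlying arrays.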

How the results depend on the processing

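The directions of the members' called changes were the same under all alternatives run. Of 605 recomputed log2 changes of members, 574 moved by less than the replicate SD and 31 by more, mostly with another added constant, another normalization or array weights. Many of the 605 could not move. The filters, the probe set rule, the trend, the replicate block and arrays outside a comparison leave a log2 change as it was. The count of 574 therefore overstates how well the changes held. Of 492 recomputed changes of the other tested Alp genes, 11 passed the threshold only under an alternative. These were 7 for Alp8 and, with array weights, those of Alp5 and Alp6, all in wandering larvae with the diet, and, in mid-L3 larvae, Alp1 with array weights and Alp5 with the compared arrays alone (0.20, adjusted p = 0.0455). The count of members called in wandering larvae with the diet was 2. It was 1 with a constant 5 times larger, with a filter at the 50th percentile, with the 6 wandering arrays alone, with those arrays and the replicate block (chosen after seeing the data), and without both control arrays numbered 1. It was 5 with array weights, whose estimation stopped before it converged, and 1 to 4 with single arrays left out. The filter at the 50th percentile removed Alp2 and Alp12, which left 3 called on control food and 2 on high sugar food in the stage comparisons. With the replicate number as a block in all 12 arrays, the members called were 2, 4, 5, 4 and 3 in the 5 comparisons, the same genes as without it. Alp4's difference of the diet changes was not called without both control arrays numbered 1. Over all genes, the wandering diet comparison called 535 genes, against 219 with the compared arrays alone, 173 with those and the replicate block, and 2366 with array weights. The mid-L3 diet comparison called 1178, against 1789 with the compared arrays alone, 2517 with array weights, and 756 and 716 without mid-L3 high sugar or control replicate 3. The difference of the diet changes called 651, against 2193 with array weights, 1271 without wandering high sugar replicate 2, and 433 and 432 without mid-L3 high sugar or control replicate 3. The search for promoter letters was not run. Signal limits the dim genes Alp7, Alp11 and Alp13, which were not tested.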

Other observations

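The genes around the 2 clusters of Alp genes are given as values. Beside Alp9 and Alp10 on arm 3L, TM9SF3 was bright enough to test, and its log2 change with the diet was -0.09 (SE 0.08, limma adjusted p = 0.57) in wandering and -0.06 (SE 0.08, adjusted p = 0.71) in mid-L3 larvae. CG10591, next to Alp9, averaged 38.8 on high sugar and 40.6 on control food in wandering larvae, and 31.1 and 30.5 in mid-L3 larvae. The cytochrome P450 gene spo, next to Alp10, averaged 9.84 and 15.8 in wandering larvae and 7.59 and 7.47 in mid-L3 larvae, and neither of these genes passed the filter.

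Beside Alp7, Alp2 and Alp8 on arm 2R, CG11291, ari-2 and Vps35 rose in wandering relative to mid-L3 larvae on control food, by log2 changes of 1.96 (SE 0.17, limma adjusted p = 1.8e-07), 1.17 (SE 0.19, adjusted p = 7.1e-05) and 0.28 (SE 0.09, adjusted p = 0.0094). Swim gave 0.39 (SE 0.17, adjusted p = 0.055). Alp2 and Alp8 were lower there. With the diet, the 4 tested flanking genes of that cluster (Vps35, Swim, CG11291 and ari-2) had adjusted p between 0.073 and 0.94.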
